A study of Mus musculus with 12 samples.

Results

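The small leucine-rich proteoglycans (SLRPs) and versican are secreted proteins of the bone and marrow matrix. The 10 genes examined were chosen by name from these families out of 56980 genes in the deposited matrix. They were *Dcn* (decorin), *Bgn* (biglycan), *Aspn* (asporin), *Fmod* (fibromodulin), *Lum* (lumican), *Prelp* (prolargin), *Omd* (osteomodulin), *Ogn* (osteoglycin), *Podn* (podocan) and *Vcan* (versican). RNA-Seq was performed on W-20 (W-20-17) cells, a murine bone marrow stromal cell (BMSC) line, in 4 groups of 3 libraries. WT cells were exposed to vehicle (PBS) or to 50 nM parathyroid hormone (PTH) for 2 hours, and so were cells titled Y428F, which carry a YAP with the tyrosine of that position replaced by phenylalanine. Library totals lay between 17127897 and 19057319 counts.

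The Y428F cells are a stable, puromycin-selected line, made with a CMV Flag-YAP plasmid as the backbone for the mutation. The study's methods also name a lentiviral PGK vector with puromycin selection as a destination vector. Which promoter drives the introduced YAP was therefore not settled. The sources used here do not say whether the sequenced cells labelled WT received a plasmid. The study's text names a double mutant, with a serine-to-alanine change added, for the sequenced line, whereas the library titles name Y428F alone, and the sequenced line could not be decided from them. No group is labelled as given an unmutated YAP, so the mutation, the introduced plasmid and the selection of clones cannot be told apart in any difference between the lines. Nothing in the labels says that the 3 libraries of a group came from separate cultures, so p-values measure the spread between these libraries, which may be technical.

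SLRPs share a core of leucine-rich repeats flanked by cysteines, which curves around collagen, and most carry chondroitin, dermatan or keratan sulfate chains. Decorin, biglycan and asporin form class I, fibromodulin, lumican, prolargin and osteomodulin class II, osteoglycin class III, and podocan a later branch. They set the width and spacing of collagen fibrils and hold growth factors of the TGF-β family near the cell. Versican is a large chondroitin sulfate proteoglycan that binds hyaluronan and fills the pericellular space of loose and remodeling matrix. In bone, biglycan is known for its part in mineralization and in keeping marrow stromal cells.

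Markers of marrow stroma were present in all libraries, since 7 of 11 marker genes (such as *Pdgfra*, *Prrx1* and the most abundant, *Cxcl12*, at a mean of 439 CPM) had more than 3 counts in every library. *Thy1* was at 0 in all 12 libraries and *Nt5e* had at most 2 counts. Among osteoblast markers *Spp1* was the most abundant at a mean of 617 CPM, whereas *Bglap* and *Ibsp*, genes of mature osteoblasts, had at most 2 and 1 counts. A single library stood apart. WT PTH replicate 1 had 44 genes with at least 5 counts that were at 0 in the other 5 WT libraries, against 2 to 18 such genes in each of the remaining 11 libraries. The values of the 7 genes other than *Dcn*, *Podn* and *Lum* that rest on it are given below with and without it, and for the further gene lists the calls lost without it are named. In bulk RNA, fewer cells that express a gene and less of its RNA per cell cannot be told apart.

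The expression of these genes spanned a wide range (the plot of expression per transcript length). Levels between genes were compared as TPM, that is, counts divided by the length of the canonical transcript and scaled to the same sum per library. *Bgn* was the most abundant, with 2708 ± 255 TPM in WT cells with vehicle (SD, n = 3), and over all 12 libraries it ranked at position 57 of 12038 genes whose mean reached 1 CPM (counts scaled to library size with TMM). *Ogn* followed at 295 ± 18.3 TPM and *Vcan* at 114 ± 16.3 TPM. *Omd* and *Fmod* were far lower, at 4.94 ± 1.17 and 4.70 ± 0.72 TPM, and their ranges overlapped over the libraries. *Aspn* and *Prelp* came next at 1.02 ± 0.31 and 0.70 ± 0.11 TPM. The order of this last pair was turned in Y428F cells, where *Prelp* had 0.87 ± 0.18 TPM and *Aspn* 0.13 ± 0.12 TPM with vehicle.

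**Figure D1:**
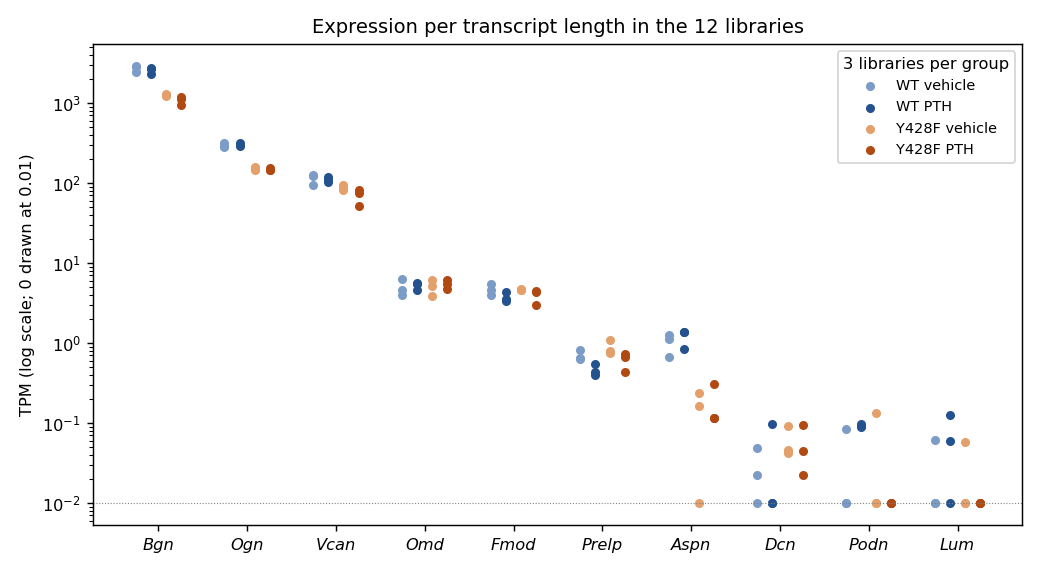
Expression per transcript length of the 10 genes (TPM, log axis, values of 0 drawn at 0.01), with a point for each of 3 libraries per group. *Bgn*, *Ogn* and *Vcan* lie above 50 TPM in every library, and *Dcn*, *Podn* and *Lum* below 0.14 TPM.

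*Dcn*, *Podn* and *Lum* were near silent. *Dcn*, in many connective tissues among the most abundant proteoglycan genes and the closest relative of *Bgn*, had 0 to 2 counts per library in WT cells with vehicle, 0, 0 and 4 counts with PTH, 2 to 4 counts in Y428F cells with vehicle and 1 to 4 with PTH. Its 4 counts in WT cells with PTH were all in the library that stood apart. *Podn* had 0 to 3 counts per library and *Lum* 0 to 2. All 3 were at or near a floor of 3 counts per library, so no difference in them is read at this depth and no fold change is given. Across the 9 SLRP genes, *Bgn* alone made up 89.8% ± 0.75 of the summed TPM in WT cells with vehicle and 88.5% ± 0.50 in Y428F cells with vehicle, and *Bgn* and *Ogn* together left no more than 0.88% for the other 7 genes in any library.

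The sequences just upstream of *Bgn*, *Ogn* and *Vcan*, the 3 abundant genes, are shown with that of *Dcn*, the near silent relative of *Bgn*. Each is the 250 bases before the canonical GENCODE start in GRCm39, 5′ to 3′ on the gene's strand, at chrX:72526958-72527207 (+), chr13:49761099-49761348 (+), chr13:89890815-89891064 (−) and chr10:97315025-97315274 (+). Capitals mark matches on either strand to GGAATG (the core bound by the TEAD partners of YAP), TGACGTCA and its part TGACG (the cAMP response element), TGANTCA (AP-1) or TATAAA (the element bound by TBP).
Bgn: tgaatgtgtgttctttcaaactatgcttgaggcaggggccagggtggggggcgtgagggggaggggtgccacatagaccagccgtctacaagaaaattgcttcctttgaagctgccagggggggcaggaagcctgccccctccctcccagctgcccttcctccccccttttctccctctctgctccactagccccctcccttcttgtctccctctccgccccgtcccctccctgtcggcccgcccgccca
Ogn: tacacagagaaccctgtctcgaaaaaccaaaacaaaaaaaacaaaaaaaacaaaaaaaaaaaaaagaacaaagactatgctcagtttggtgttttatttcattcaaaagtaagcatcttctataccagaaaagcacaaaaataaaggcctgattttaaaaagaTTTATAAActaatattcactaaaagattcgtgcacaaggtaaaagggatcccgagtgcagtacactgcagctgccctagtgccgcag
Vcan: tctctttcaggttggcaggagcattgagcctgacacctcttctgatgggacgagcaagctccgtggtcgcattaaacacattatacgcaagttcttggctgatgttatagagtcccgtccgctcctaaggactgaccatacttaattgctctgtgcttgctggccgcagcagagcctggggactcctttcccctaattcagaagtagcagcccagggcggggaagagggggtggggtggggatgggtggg
Dcn: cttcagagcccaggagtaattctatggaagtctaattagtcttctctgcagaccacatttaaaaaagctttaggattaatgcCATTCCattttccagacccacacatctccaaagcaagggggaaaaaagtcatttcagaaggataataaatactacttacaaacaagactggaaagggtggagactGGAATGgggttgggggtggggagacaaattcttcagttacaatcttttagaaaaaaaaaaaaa
GGAATG had 2 matches upstream of *Dcn*, at bases -168 to -163 and -63 to -58 from the start, and none in the other 3 windows. It was present in 12.1% of 21757 promoters of the same length. TGACG was present in 18% of them, TGACGTCA in 1.7% and TGANTCA in 6.18%, and none of the 10 genes held one of these. The capitals in *Ogn* are a pair of overlapping TATAAA matches, which 11.9% of promoters held. The *Bgn* window was rich in G and C (64%), whereas that of *Ogn* held 34% and the mean over all promoters was 53.3%. A match is only a match of letters, and the RefSeq starts of *Ogn* and *Vcan* differ from those used here.

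**Figure D2:**
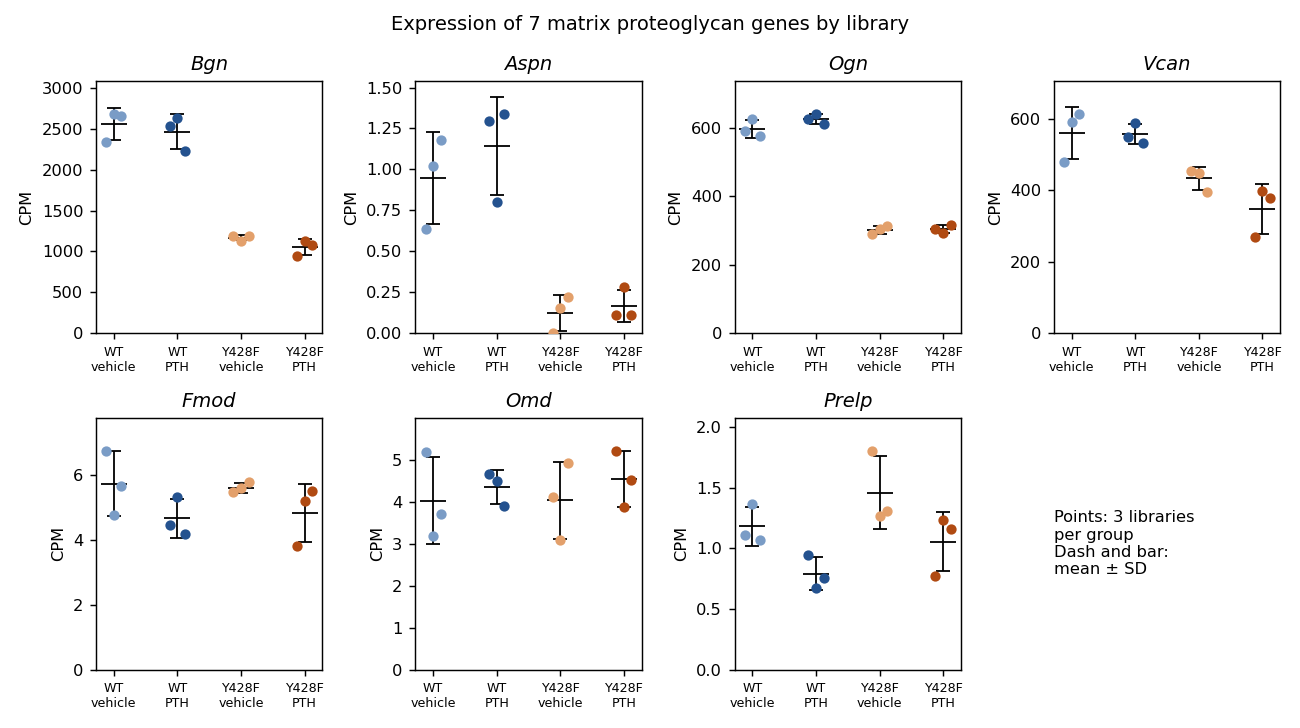
Expression (CPM, linear axes from 0) of the 7 genes other than *Dcn*, *Podn* and *Lum*, with a point for each library and the mean ± SD of 3 libraries per group. For *Bgn*, *Aspn*, *Ogn* and *Vcan* every Y428F library lies below every WT library of the same treatment, whereas for *Fmod* and *Omd* the lines overlap within each treatment.

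The effect of PTH on WT cells was examined first. None of the 7 genes that could be tested was called, while 11.8% of 15583 genes were called in this comparison (6.88% higher and 4.91% lower, quasi-likelihood test of edgeR, p adjusted by Benjamini-Hochberg and under 0.05). Scaled by library totals in place of TMM, the calls over all genes were 744 higher and 1216 lower instead of 1072 and 765. None of the 7 genes had an unadjusted p under 0.05, and DESeq2 called 0. *Bgn* had 44195, 47217 and 49660 counts in the 3 libraries with vehicle and 43130, 42821 and 38319 with PTH. Scaled for library size the groups overlapped, at 2562 ± 195 and 2469 ± 211 CPM, a log2 fold change of -0.05 (95% interval -0.22 to 0.13, adjusted p = 0.792). Thus a change of *Bgn* by more than about 0.22 in either direction lay outside the interval.

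*Ogn*, the class III gene, first isolated from bone, was not called either. It had 11174, 11007 and 10738 counts with vehicle and 10620, 10435 and 10519 counts with PTH, or 598 ± 25.6 and 627 ± 14.7 CPM. The log2 fold change was 0.08 (interval -0.06 to 0.21, adjusted p = 0.511). *Vcan* had 561 ± 72.3 CPM with vehicle against 557 ± 28.0 with PTH (log2 fold change -0.00, interval -0.19 to 0.18, adjusted p = 0.986). Without the library that stood apart, the log2 fold changes were -0.06 for *Bgn*, 0.09 for *Ogn* and 0.02 for *Vcan*.

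The less abundant genes gave wider intervals. *Prelp*, a class II protein that anchors basement membranes to the matrix beneath, had 21, 24 and 20 counts with vehicle and 16, 11 and 13 with PTH. The 2 groups did not overlap, PTH being lower as in 14.6% of all genes tested, and the log2 fold change of -0.56 had an interval from -1.35 to 0.22 (adjusted p = 0.381). *Fmod*, which binds collagen and guides fibril assembly, had 5.74 ± 1.00 and 4.67 ± 0.60 CPM, and *Omd*, a keratan sulfate proteoglycan of bone, 4.02 ± 1.04 and 4.35 ± 0.40 CPM. Neither was called (adjusted p = 0.336 and 0.796). *Aspn* had 12, 18 and 22 counts with vehicle and 22, 13 and 23 with PTH (adjusted p = 0.721). The log2 fold changes were -0.29 for *Fmod*, 0.11 for *Omd* and 0.29 for *Aspn*. Without the library that stood apart they were -0.25, 0.07 and 0.20, with -0.69 for *Prelp*, and 0 of the 7 genes were called.

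In Y428F cells PTH again called none of the 9 genes tested, against 12.4% of 17691 genes (6.61% higher and 5.78% lower, or 1170 and 1022 genes, which became 888 and 1445 with library totals). At an unadjusted p under 0.05 the count was 2, *Bgn* and *Vcan*, both lower with PTH, and DESeq2 called 0. *Vcan* had 8309, 8899 and 7233 counts with vehicle and 4828, 7100 and 6865 with PTH. In CPM this was 433 ± 33.3 and 348 ± 70.4, with the highest PTH library (399 CPM) just above the lowest vehicle library (395 CPM). The log2 fold change was -0.32 (interval -0.55 to -0.09, adjusted p = 0.0695). Without Y428F PTH replicate 1, the library with the lowest *Vcan* and *Bgn*, it was -0.16 (adjusted p = 0.31), and without Y428F PTH replicate 2 it was -0.42 (adjusted p = 0.0208). *Vcan* was also called lower with library totals in place of TMM, with no filter on low counts and with a replicate block, as given in the closing section.

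*Bgn* in Y428F cells had 1170.4 ± 33.5 CPM with vehicle against 1049 ± 98.2 with PTH. All 3 PTH libraries lay below all vehicle libraries, as held for 15.4% of genes, and the log2 fold change of -0.16 (interval -0.31 to -0.00) had an adjusted p of 0.2. Without Y428F PTH replicate 1 it was -0.08 (adjusted p = 0.597). *Prelp* was the other gene without overlap, at 33, 25 and 24 counts with vehicle and 14, 22 and 21 with PTH (log2 fold change -0.46, adjusted p = 0.397, and -0.28 without either Y428F vehicle replicate 1 or Y428F PTH replicate 1). *Ogn* stayed at 302 ± 12.1 and 305 ± 12.1 CPM (adjusted p = 0.935). For *Fmod*, *Omd* and *Aspn* the adjusted p lay between 0.493 and 0.828.

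Whether the lines differed in their response to PTH was tested as an interaction. None of the 9 genes was called, against 0.413% of all genes (0.17% higher and 0.243% lower), and none had an unadjusted p under 0.05. DESeq2 called 0. The difference in response (Y428F minus WT) was -0.30 on the log2 scale for *Vcan* (interval -0.63 to 0.02, unadjusted p = 0.0646, adjusted p = 0.759) and -0.10 for *Bgn* (interval -0.32 to 0.12, and -0.17 to -0.04 with a library left out). For *Ogn* it was -0.06 (interval -0.22 to 0.11), and for *Fmod*, *Omd*, *Prelp* and *Aspn* it was 0.09, 0.06, 0.11 and 0.13. The value for *Vcan* was -0.15 without Y428F PTH replicate 1 (adjusted p = 0.897) and -0.42 without Y428F PTH replicate 2 (adjusted p = 0.428), and with no filter on low counts its adjusted p was 0.0674. Without the WT PTH library that stood apart the difference was -0.31 for *Vcan*, -0.07 for *Bgn*, -0.05 for *Ogn*, 0.07 for *Fmod*, 0.12 for *Omd*, 0.26 for *Prelp* and 0.23 for *Aspn*, none of them called.

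**Figure D3:**
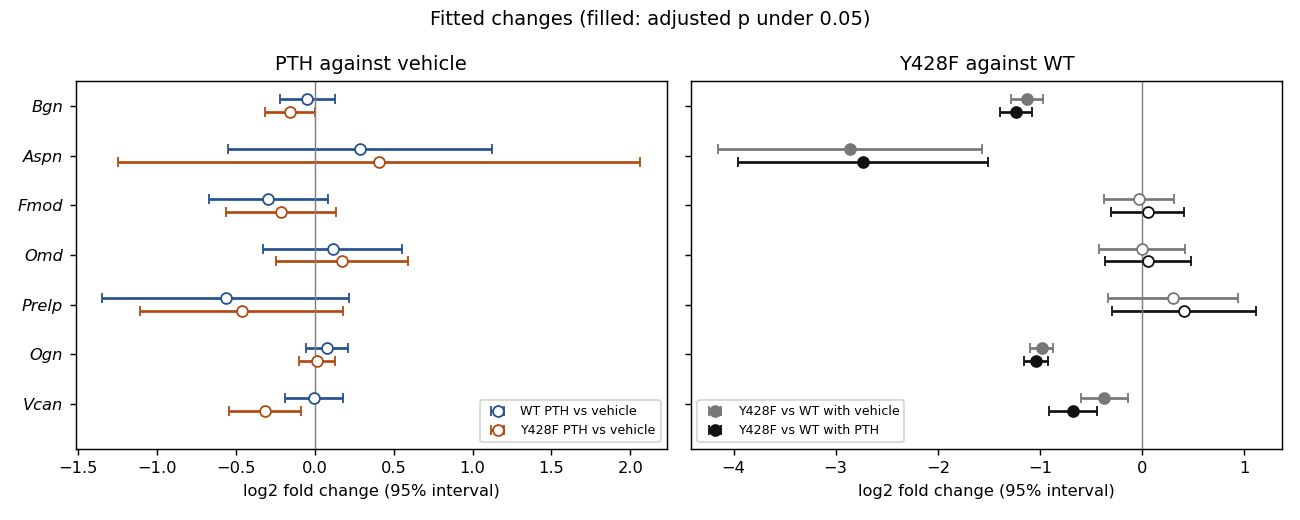
Log2 fold changes with 95% intervals from edgeR's fits for the 7 genes other than *Dcn*, *Podn* and *Lum*, PTH against vehicle in each line (left) and Y428F against WT cells with each treatment (right), filled where the adjusted p was under 0.05. No point is filled on the left, and *Bgn*, *Aspn*, *Ogn* and *Vcan* are filled on the right, all below 0.

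The lines differed. With vehicle, 4 of the 9 genes tested were lower in Y428F cells (*Bgn*, *Aspn*, *Ogn* and *Vcan*) and 0 were higher. In the same comparison 45.1% of 17691 genes were called, 22.7% lower and 22.4% higher. With PTH the same 4 genes were lower and 0 were higher, where 45.7% of all genes were called, 23% of all genes being lower and 22.8% higher. The libraries of these 4 genes did not overlap between the lines, and 26.3% of all genes had non-overlapping, lower Y428F libraries with vehicle and 26.3% with PTH. At an unadjusted p under 0.05, 0 genes were higher. With PTH *Podn* also passed this limit, but at 0 to 3 counts per library it is not counted as lower, since its few counts decided whether it was tested. DESeq2 called the same 4 genes. The median log2 fold change of the 9 genes tested was -0.03 with vehicle, and the median over all genes was 0.01. With PTH these medians were -0.68 and 0.02. Without *Dcn* and *Podn*, whose fitted values rest on a few counts, the other 7 had medians of -0.37 and -0.68.

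*Bgn*, which binds collagen and is known to bind BMP and TGF-β proteins, had 21705, 22390 and 21809 counts in Y428F cells with vehicle, against 44195 to 49660 in WT cells. In CPM, Y428F libraries lay between 1132 and 1191 and WT libraries between 2337 and 2685, so the groups were far apart. Expression in Y428F cells was 0.457 times that in WT cells (log2 fold change -1.13 ± 0.08 SE, adjusted p = 1.27e-10). With PTH it was 0.425 times (log2 fold change -1.23 ± 0.08, adjusted p = 3.27e-11), from 16952, 20134 and 19569 counts in Y428F cells. Without the WT PTH library that stood apart the log2 fold changes with PTH were -1.21 for *Bgn*, -2.63 for *Aspn*, -1.03 for *Ogn* and -0.68 for *Vcan*, and these 4 genes stayed called. They were 0.03 for *Fmod*, 0.12 for *Omd* and 0.56 for *Prelp*, against 0.06, 0.06 and 0.41 with it.

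*Aspn*, the third class I gene, which binds collagen and TGF-β, changed by the largest factor of the 4 but at a low level. Y428F libraries held 0, 3 and 4 counts with vehicle, and 2, 5 and 2 with PTH, against 12 to 23 in the 6 WT libraries. The log2 fold changes were -2.86 ± 0.62 SE (adjusted p = 0.000671) with vehicle and -2.73 ± 0.59 (adjusted p = 0.000625) with PTH. The 95% interval with vehicle ran from -4.15 to -1.57. Its size is therefore poorly known, while no Y428F library reached a WT library.

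*Ogn* had 5276, 6046 and 5721 counts in Y428F cells with vehicle and 5492, 5220 and 5758 with PTH, where WT libraries had 10435 to 11174. Expression was 0.506 times that in WT cells with vehicle (log2 fold change -0.98 ± 0.06 SE, adjusted p = 8.32e-12) and 0.486 times with PTH (-1.04 ± 0.06, adjusted p = 3.51e-12). Spread within each group was small for this gene, and the lines did not overlap. The ratio of *Bgn* to *Ogn* in TPM was with vehicle 9.17 ± 0.72 (WT) and 8.28 ± 0.45 (Y428F), and with PTH 8.41 ± 0.54 and 7.37 ± 0.83.

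*Vcan* differed less. It had 561 ± 72.3 CPM in WT cells against 433 ± 33.3 in Y428F cells with vehicle, and the highest Y428F library (455 CPM) lay just below the lowest WT library (479 CPM). The log2 fold change was -0.37 ± 0.11 SE (adjusted p = 0.00844). It lost the call without WT vehicle replicate 3 (-0.30, adjusted p = 0.0551) or without Y428F vehicle replicate 3 (-0.31, adjusted p = 0.0508). With PTH the difference was -0.68 ± 0.11 (adjusted p = 3.26e-05), and -0.53 without Y428F PTH replicate 1, which remained called.

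The 3 class II genes that were tested did not pass, and *Lum* had too few counts for a test. *Fmod* had 5.74 ± 1.00 CPM in WT cells against 5.62 ± 0.16 in Y428F cells with vehicle (log2 fold change -0.03, interval -0.37 to 0.31). *Omd* had 4.02 ± 1.04 and 4.03 ± 0.92 CPM (log2 fold change -0.00, interval -0.43 to 0.42). *Prelp* had 1.18 ± 0.16 and 1.46 ± 0.30 CPM (log2 fold change 0.30, interval -0.33 to 0.94, and 0.12 without Y428F vehicle replicate 1). Their intervals do not reach the log2 fold changes fitted for *Bgn* and *Ogn*. Those of *Fmod* and *Omd* do include the value fitted for *Vcan* with vehicle (-0.37). With PTH the adjusted p of the 3 genes lay between 0.346 and 0.835.

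Several of these genes lie side by side (the plot of neighbouring genes). *Aspn*, *Omd* and *Ogn* follow each other on chromosome 13 next to *Ecm2*, which encodes another leucine-rich matrix protein. Along this run the differences between the lines were not alike. *Ecm2* fell, with 8 to 22 counts in WT libraries and 2 to 8 in Y428F libraries with vehicle (log2 fold change -1.50 ± 0.55 SE, adjusted p = 0.0306, but -1.13 and 0.161 without WT vehicle replicate 3, and also not called without WT vehicle replicate 1 or Y428F vehicle replicates 1 or 3), and so did *Aspn*, while *Omd*, which lies between *Aspn* and *Ogn*, had a log2 fold change of -0.00. Beyond *Ogn*, *Nol8* was higher in Y428F cells with vehicle (0.32, adjusted p = 0.00362). *Vcan* lies elsewhere on chromosome 13, and its neighbors *Hapln1*, a link protein gene, and *Edil3* had at most 2 and 0 counts, while *Xrcc4* on its other side was not called (adjusted p = 0.268).

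On chromosome X the expressed gene before *Bgn*, *Haus7*, was higher in Y428F cells (0.57, adjusted p = 3.26e-05). The gene after *Bgn*, *Atp2b3*, had a log2 fold change of -1.21 with vehicle but was not called at 2 to 17 counts (adjusted p = 0.157). With PTH its value was -1.29 (adjusted p = 0.0928). The median log2 difference between the lines over the genes of a chromosome with at least 1 CPM was 0.12 for chromosome X (379 genes) and 0.12 for chromosome 13 (456 genes) with vehicle. Relative to these medians *Bgn* differed by -1.25, *Ogn* by -1.10 and *Vcan* by -0.49. *Prelp* and *Fmod* lie next to each other on chromosome 1 and were flanked by *Optc*, another leucine-rich gene, with 3 to 16 counts, and *Btg2*, neither of them called with vehicle (adjusted p = 0.673 and 0.106). *Podn* on chromosome 4 lies between *Slc1a7*, with at most 3 counts, and *Scp2*, which was expressed at 66.0 CPM in WT cells with vehicle and was not called (adjusted p = 0.31). *Dcn* and *Lum* share a run on chromosome 10 with their relatives *Kera* and *Epyc*, which had at most 0 and 4 counts, so this whole run was near silent, next to *Btg1* at 133 CPM in WT cells with vehicle.

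**Figure D4:**
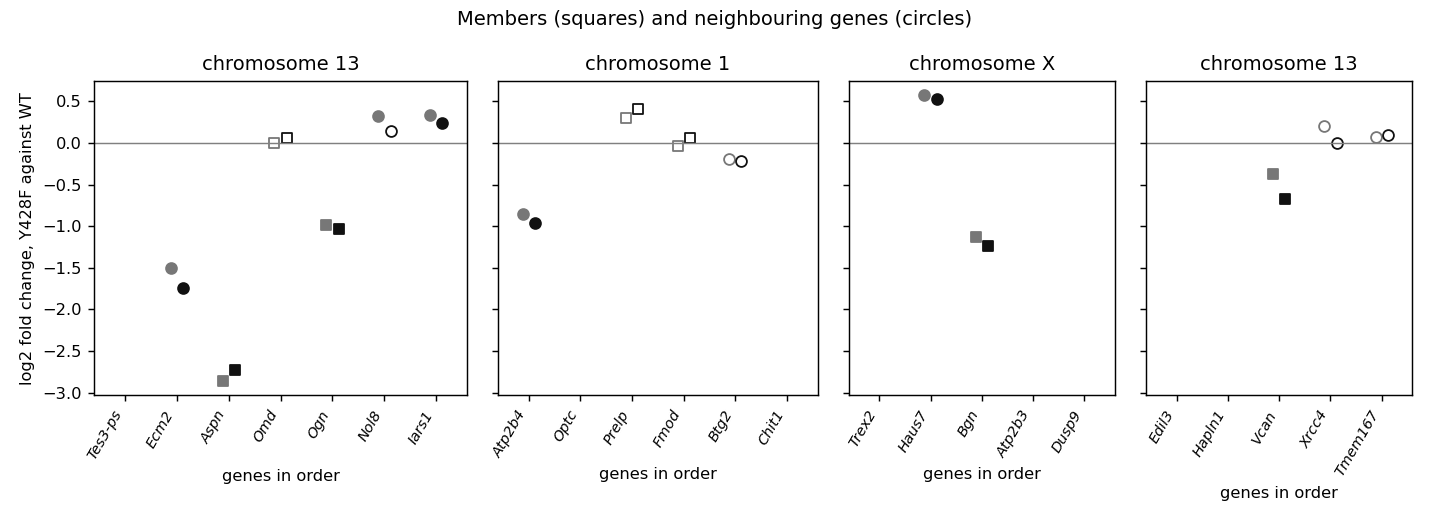
Log2 fold change of Y428F against WT cells with vehicle (gray) and with PTH (black) for the genes (squares) and their protein-coding neighbors (circles), in chromosomal order and not to scale, filled where the adjusted p was under 0.05. Neighbors with no library above 18 counts are named without a point. *Aspn* and *Ogn* lie well below 0 while *Omd* between them lies at 0.

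The genes most like each member over the 12 libraries were found by the root mean square difference of centered log2 CPM, over genes with at least 1 CPM. This is a description, in which the same libraries enter each value. For *Bgn* they were *Reck*, an inhibitor of matrix metalloproteinases (0.04), *Pld3* (0.05) and *Cacng7* (0.06), where *Bgn* itself varied by 0.60. For *Ogn* they were *Fkbp9*, an endoplasmic reticulum prolyl isomerase (0.06), *Atp6v1a* (0.06) and *Lgmn* (0.06). For *Vcan* the closest gene was *Col1a1*, the α1 chain of type I collagen (0.07), which had 7048 ± 715 CPM in WT cells against 5455 ± 285 in Y428F cells with vehicle and 4339 ± 644 CPM in Y428F cells with PTH. *Vps13d* and *Tep1* followed (both 0.08). *Bgn* and *Ogn* differed from each other by 0.15. For the less abundant genes the nearest distances were larger, 0.12 for *Fmod*, 0.14 for *Omd* and 0.16 for *Prelp*.

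The fibril partners of these proteoglycans were lower in most cases. With vehicle 8 of 13 tested genes were lower in Y428F cells and 3 were higher, and with PTH 9 were lower and 3 higher. Over all genes, 22.7% were lower and 22.4% higher with vehicle, and 23% and 22.8% with PTH. *Col3a1*, a fibrillar collagen, had 836 ± 150 CPM in WT cells against 203 ± 6.02 in Y428F cells (log2 fold change -2.04, adjusted p = 1.76e-12). *Fbln1*, a fibulin that binds versican, fell from 19.1 ± 1.53 to 6.93 ± 0.84 CPM (-1.47, adjusted p = 5.43e-10). *Lox*, which crosslinks collagen, went the other way, from 424 ± 50.8 to 850 ± 7.37 CPM (1.00, adjusted p = 6.35e-10). In response to PTH 0 of 13 were called in WT cells, while Y428F cells had 1 higher (*Tnc*) and 1 lower (*Col1a1*). The *Col1a1* call was lost without Y428F PTH replicate 1 (adjusted p = 0.124) or Y428F vehicle replicate 1 (adjusted p = 0.115), whereas without Y428F PTH replicate 2 *Col1a2*, *Col3a1*, *Col5a1* and *Col6a1* were called too (adjusted p from 0.0208 to 0.0341), which made 5 lower. In WT cells *Lox* was called higher without WT vehicle replicate 1 or WT PTH replicate 3 (adjusted p = 0.00514 and 0.0418). Between the lines, 7 to 8 were lower with vehicle and 7 to 9 with PTH when a library was left out. *Fbn1* and *Col5a2* were lost with PTH without the library that stood apart (adjusted p = 0.0731 and 0.0957), and also without WT PTH replicate 2 or Y428F PTH replicate 1, and *Col5a2* without Y428F PTH replicate 3. The difference in response called 0.

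Genes for proteases that process or cut these proteins showed the line difference in 1 direction. Of 8 genes tested, 6 were lower and 0 higher in Y428F cells with vehicle, and 7 were lower with PTH. The shares lower over all genes were 22.7% and 23%. *Pcolce*, which enhances such a protease and is not one itself, is counted in this list. It was among the genes lower with PTH (-0.52, adjusted p = 2.04e-07). *Adamts4*, an aggrecanase that also cuts versican, had 93.8 ± 4.53 CPM in WT cells against 46.0 ± 1.29 in Y428F cells (log2 fold change -1.03, adjusted p = 5.67e-11). *Mmp14*, a membrane-bound metalloproteinase, fell from 897 ± 112 to 489 ± 9.54 CPM (-0.88, adjusted p = 4.55e-09), and *Adamts5* from 220 ± 23.1 to 138 ± 3.60 CPM (-0.68, adjusted p = 1.80e-07). With PTH in WT cells *Adamts1*, a versican-cutting protease, rose from 175 ± 18.8 to 288 ± 21.2 CPM (0.73, adjusted p = 7.42e-05), and *Adamts4* fell by 0.23 on the log2 scale (adjusted p = 0.0365), a call that was lost whichever WT library was left out (adjusted p from 0.0528 to 0.199). In WT cells the number lower was 2 without WT vehicle replicate 1, where *Bmp1* and *Mmp14* were called (adjusted p = 0.0354 and 0.0325), and *Adamts5* was called without WT vehicle replicate 2 (adjusted p = 0.0276). In Y428F cells PTH called 0 higher and 2 lower, and 1 lower without Y428F PTH replicate 1 or any of the Y428F vehicle libraries, where *Bmp1* was lost (adjusted p from 0.0528 to 0.119). The difference in response called *Adamts1* alone, at -0.57 (adjusted p = 0.0162). That call was lost without WT PTH replicates 1 or 2, Y428F PTH replicate 3, or Y428F vehicle replicates 1 or 2 (adjusted p from 0.052 to 0.0605), while the value stayed between -0.57 and -0.50. Without WT vehicle replicate 2 *Adamts5* was called as well, at 0.50 (adjusted p = 0.0243).

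Enzymes that build the sugar chains moved in both directions. Of 19 tested enzymes for the linker and the chondroitin and dermatan chains, 8 were lower and 3 higher in Y428F cells with vehicle, and 9 lower and 2 higher with PTH. *Csgalnact1*, which starts the chondroitin chain, fell from 55.7 ± 3.53 to 34.0 ± 1.21 CPM (log2 fold change -0.71, adjusted p = 5.07e-08), *Chst3*, a chondroitin 6-sulfotransferase, from 4.66 ± 0.50 to 1.55 ± 0.36 CPM (-1.58, adjusted p = 2.02e-06), and *Chst15* had 3 to 5 counts in WT and 49 to 76 in Y428F libraries (adjusted p = 7.89e-08). PTH called 3 higher and 1 lower in WT cells and 2 higher and 3 lower in Y428F cells. The number lower in Y428F cells was 1 without Y428F PTH replicates 1 or 3 or Y428F vehicle replicate 3, where *Chst14* and *Chst3* were both lost (adjusted p from 0.0606 to 0.167), and *Chst14* was also lost without Y428F vehicle replicate 1 (adjusted p = 0.129). *Dse*, the epimerase that makes dermatan sulfate, rose in WT cells from 97.7 ± 2.39 to 117 ± 4.68 CPM (0.26, adjusted p = 0.012), and *Csgalnact2* from 37.4 ± 3.78 to 48.5 ± 3.32 CPM (0.38, adjusted p = 0.0156). Both calls were lost without WT vehicle replicate 3 (adjusted p = 0.0633 and 0.0656), and also without WT PTH replicate 2 for *Dse* and WT vehicle replicate 2 for *Csgalnact2*. The number higher in WT cells ran from 1 to 3. Without WT vehicle replicate 3 *Dsel* was lost as well (adjusted p = 0.0798). The 1 then called was *Chst12* (adjusted p = 0.0439), which was not called with all libraries. The gene lower in WT cells, *Chst14*, lost its call without any of 5 of the 6 WT libraries (adjusted p from 0.0577 to 0.117), WT vehicle replicate 2 being the exception, and *Xylt2* was called without WT vehicle replicate 1 (adjusted p = 0.0433). The difference in response called 0 of 19.

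Of 4 tested enzymes for keratan chains, 1 was higher and 2 were lower in Y428F cells with either treatment. In these comparisons 45.1% of all genes were called with vehicle and 45.7% with PTH. With PTH the gene that was higher, *Chst1*, was not called without WT PTH replicate 2 (adjusted p = 0.0613) or Y428F PTH replicate 3 (adjusted p = 0.0719), which left 0 higher. *B4galt1*, a galactosyltransferase, fell from 148 ± 7.37 to 112 ± 2.15 CPM (log2 fold change -0.40, adjusted p = 2.28e-06), and *B4galt4* had 29 to 32 counts in WT and 1 to 6 in Y428F libraries (adjusted p = 1.07e-05). *Chst1*, the keratan sulfotransferase, rose from 85.8 ± 3.89 to 106 ± 1.57 CPM (0.31, adjusted p = 8.36e-05), and with PTH it fell in WT cells to 69.2 ± 2.87 CPM (adjusted p = 0.00931, but 0.0624 without WT PTH replicate 2 and 0.0568 without WT vehicle replicate 3). PTH called 1 lower and 0 higher in each line, and the difference in response 0.

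Signaling partners were split. With vehicle 5 of 12 were higher and 4 lower in Y428F cells, and the counts with PTH were the same, 5 and 4. Over all genes 22.4% were higher and 22.7% lower with vehicle, and 22.8% and 23% with PTH. *Bmp4*, a bone morphogenetic protein, had 1 to 7 counts in WT and 478 to 509 counts in Y428F libraries with vehicle (adjusted p = 1.75e-15). *Ccn4*, a matricellular protein that binds biglycan and decorin, rose from 33.5 ± 4.76 to 73.3 ± 0.98 CPM (1.13, adjusted p = 3.10e-09), and *Tgfbr2*, the type II TGF-β receptor, fell from 1136 ± 37.2 to 474 ± 8.32 CPM (-1.26, adjusted p = 3.05e-13). With PTH in WT cells 3 of 11 rose and 0 fell. *Tgfbr1* rose from 32.8 ± 2.17 to 45.6 ± 2.33 CPM (0.48, adjusted p = 0.00162) and *Tgfb2* from 19.6 ± 2.03 to 27.8 ± 0.26 CPM (0.51, adjusted p = 0.00203). *Tgfb3* was called lower without WT vehicle replicate 1 (adjusted p = 0.047). Between the lines with PTH the number higher ran from 3 to 5 when a library was left out. The call of *Tgfb2* there was lost without any WT PTH library or without Y428F PTH replicates 2 or 3, and without Y428F PTH replicate 2 its value was 0.13 (adjusted p = 0.286) instead of 0.24. In Y428F cells PTH called 5 higher and 1 lower, and the difference in response 0. The gene lower, *Bmp4*, was not called without Y428F PTH replicates 1 or 3 or Y428F vehicle replicates 1 or 3 (adjusted p from 0.0569 to 0.0914), and without Y428F PTH replicate 2 *Tgfbr2* was called too (adjusted p = 0.0306). *Tlr4*, one of the 5 higher, was lost in 5 of 6 cases (adjusted p from 0.0628 to 0.164), and *Tgfbr1* without Y428F vehicle replicate 2 (adjusted p = 0.089).

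Among 16 relatives (further leucine-rich genes, hyaluronan-binding proteoglycans and link proteins) 10 could be tested. With vehicle 3 were lower and 1 higher in Y428F cells, and with PTH 2 were lower and 0 higher. With a library left out, 1 to 3 were lower with vehicle, since *Ecm2* and *Hapln4* were each lost in 4 of 6 cases (*Hapln4* with an adjusted p from 0.0724 to 0.141). With PTH both were lost without Y428F PTH replicate 1 (adjusted p = 0.0603 and 0.112), which left 0 lower, and *Hapln4* also without WT PTH replicate 2 (adjusted p = 0.0803). *Podnl1*, a relative of podocan, fell from 105 ± 2.66 to 91.7 ± 0.91 CPM (log2 fold change -0.20, adjusted p = 0.00292), and *Ncan*, a brain proteoglycan of the versican family, rose from 2.35 ± 0.44 to 3.89 ± 0.64 CPM (0.73, adjusted p = 0.00851, and 0.0583 without Y428F vehicle replicate 2). PTH called 0 of 10 in either line, and the difference in response called 0. The counts of every list, and of the cell type markers below, stand beside the shares over all genes given above for the same comparison.

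**Figure D5:**
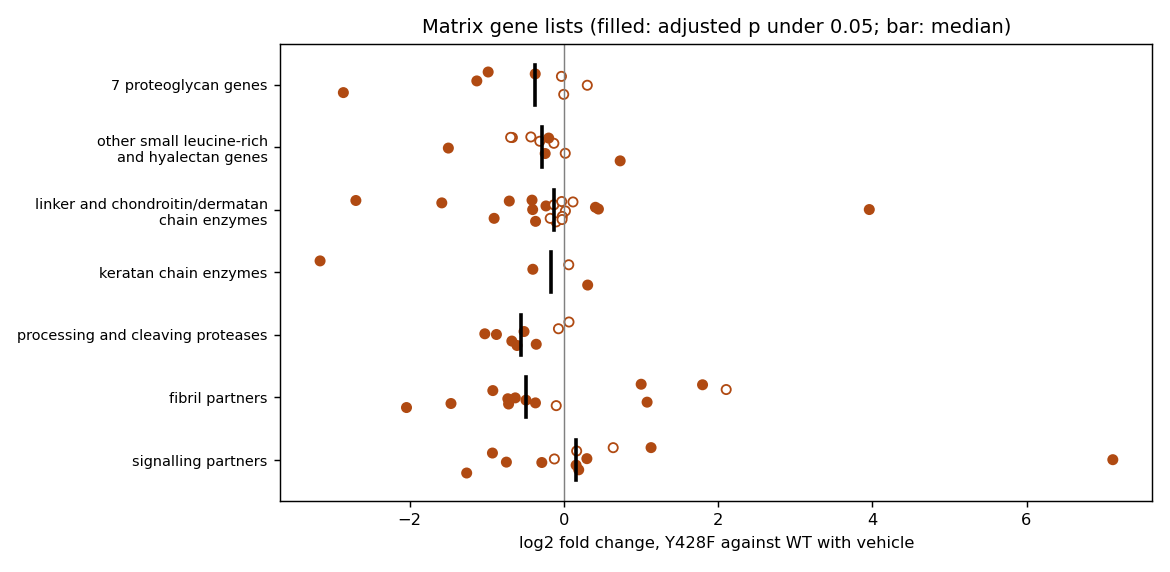
Log2 fold change of Y428F against WT cells with vehicle for each tested gene of the lists, one point per gene, filled where the adjusted p was under 0.05, with the median as a bar. *Dcn*, *Podn* and *Lum* are left out, whereas the other lists keep their genes of few counts. With *Dcn* and *Podn* kept, the median of the SLRP and versican genes is -0.03, so the medians are not ranked between lists. Medians lie below 0 for proteases with *Pcolce* (-0.56), fibril partners (-0.49), the SLRP and versican genes (-0.37) and relatives (-0.28). They also do for keratan enzymes (-0.17) and linker, chondroitin and dermatan enzymes (-0.13), while that of signaling partners is 0.16.

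Markers of other cell types moved with the line. The summed endothelial markers had 1.59, 0.91 and 1.77 CPM in WT and 7.94, 8.85 and 9.94 CPM in Y428F libraries with vehicle, and with PTH 0.94, 1.05 and 1.16 CPM against 6.49, 6.12 and 6.77 CPM. *Cdh5* was the most abundant of these and the 1 of 4 tested that was called, while *Pecam1* had at most 6 counts and *Emcn* at most 3. *Kdr* was at 0 in the 6 WT libraries and had at most 5 counts in Y428F libraries (adjusted p = 0.0531 with PTH, and 0.0234 without Y428F PTH replicate 2, which made 2 called). The summed hematopoietic markers had 1.80, 1.59 and 1.61 CPM in WT and 3.94, 3.08 and 3.66 CPM in Y428F libraries with vehicle. With PTH they had 1.18, 0.92 and 2.33 against 4.21, 4.15 and 4.63 CPM. *Ptprc* was the most abundant and the 1 of 4 called, and *Adgre1* and *Cd3e* had at most 3 counts.

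The summed chondrocyte markers had 47.3, 63.7 and 58.1 CPM in WT and 20.04, 18.7 and 19.7 CPM in Y428F libraries with vehicle, nearly all of it *Sox9*, while *Col2a1*, *Acan*, *Matn1* and *Col9a1* had at most 3 counts in every library. With PTH they had 54.5, 56.6 and 51.5 CPM against 19.4, 24.0 and 23.2 CPM. The summed stromal markers had 1984, 2270.3 and 2261 CPM in WT and 1418, 1375 and 1396 CPM in Y428F libraries with vehicle, and with PTH 2051, 2113 and 1957 against 1303, 1376 and 1363 CPM. Of 9 stromal markers tested with vehicle, 6 were lower and 3 higher, where 45.1% of all genes were called. The summed osteoblast markers had 776, 950.0 and 852 CPM in WT and 567, 558 and 568 CPM in Y428F libraries with vehicle. With PTH they had 803, 765 and 839 against 578, 560.0 and 602 CPM, so this sum, which is mostly *Spp1*, was lower in Y428F libraries with either treatment. Of 5 osteoblast markers tested with vehicle, 2 were lower (*Spp1* and *Runx2*) and 1 was higher (*Phex*). With PTH 1 was lower (*Spp1*) and 1 higher (*Phex*, not called without Y428F PTH replicate 1, adjusted p = 0.0545), *Runx2* had an adjusted p of 0.0765 (0.0191 without Y428F PTH replicate 2), and 3 of the 5 log2 fold changes were above 0. The summed smooth muscle markers, led by *Acta2*, came with vehicle to 199.8 ± 23.6 CPM (WT) and 198 ± 9.25 CPM (Y428F), and with PTH to 821, 794 and 841 CPM in WT against 475, 451 and 419 CPM in Y428F libraries. Within this list *Acta2* was higher in Y428F cells with vehicle (106.8 ± 15.8 against 129 ± 7.49 CPM, adjusted p = 0.00734, not called without WT vehicle replicate 2 or Y428F vehicle replicate 3, adjusted p = 0.0679 and 0.0575) and *Tagln* lower (83.2 ± 7.87 against 60.3 ± 2.15 CPM, adjusted p = 7.74e-05), and with PTH 3 of 4 tested were lower.

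Adipocyte markers summed to 435 ± 31.8 and 424 ± 1.78 CPM with vehicle, mostly *Lpl*, but the members moved in opposite directions. *Cebpa* fell from 46.05 ± 2.19 to 9.76 ± 0.66 CPM (log2 fold change -2.24, adjusted p = 3.37e-14) and *Fabp4* from 26.9 ± 5.79 to 6.57 ± 0.63 CPM (-2.03, adjusted p = 8.67e-11), while *Pparg* rose from 31.7 ± 1.40 to 39.9 ± 0.86 CPM (0.33, adjusted p = 0.000835). *Lpl* was at the threshold (0.15, adjusted p = 0.0496) and lost its call in 5 of 6 cases with a library left out. With PTH the same 2 were lower and the same 2 higher, *Lpl* being lost in 3 cases. The tendon markers summed to 20.7 ± 0.71 and 24.2 ± 0.81 CPM with vehicle and to 16.8 ± 2.31 and 20.2 ± 0.61 CPM with PTH. Of the 2 tested, *Scx* rose with vehicle, from 45 to 56 counts per library in WT to 128 to 182 in Y428F (log2 fold change 1.61, adjusted p = 1.80e-07). *Mkx* was not called there, at 17.9 ± 1.07 and 15.8 ± 0.46 CPM. With PTH *Scx* was higher (1.59, adjusted p = 2.37e-07) and *Mkx* lower (-0.28, adjusted p = 0.0341). The *Mkx* call was lost without WT PTH replicates 2 or 3 or Y428F PTH replicates 1 or 2.

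The part of these marker differences in the levels of *Bgn*, *Ogn*, *Aspn* and *Vcan* was not tested.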

How the data were processed

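W-20 cells were examined by bulk RNA-Seq of poly-T purified mRNA in 12 libraries, 3 per group. The authors aligned reads to GRCm39 (STAR 2.7.10b, GENCODE basic genes). They deposited expected counts per gene from RSEM, not scaled for library size or length. Groups come from library titles, since the genotype label of the Y428F libraries reads WT. The deposited expected counts were rounded and tested with edgeR 4.0.16 under R 4.3.3 (quasi-likelihood test, TMM, Benjamini-Hochberg adjustment, genes totaling 10 counts or more). The WT response was fitted on 6 libraries and the other comparisons on 12. TPM used canonical transcript lengths of GENCODE vM39, to which 56236 gene identifiers were matched. Chi-square tests between replicates gave 2.87 to 14.2 per degree of freedom, more than counting noise. DESeq2 1.42.0, other scalings, filters, a replicate block and each library left out were tried, and the test was tried on simulated counts.

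The 10 genes and the lists were chosen with earlier results of these data known, so their counts are no independent support. All 10 genes are named, and from each list the 3 genes with the smallest adjusted p between the lines with vehicle and the 2 with the smallest for PTH in WT cells, among those called. Markers and neighbors are named to describe the cells and the chromosome. Strandedness of the libraries is not settled by the labels, so reads of overlapping antisense genes cannot be told apart. A marker gene of the hematopoietic list is not reported here.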

Additional observations from a re-analysis of the deposited data

Results flagged for a closer look

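No gene of the SLRP group and not *Vcan* met a criterion for a closer look, and groups of 3 libraries were not examined for outlying values. Among the list and marker genes, 4 differed between the lines in their response to PTH by the interaction test (edgeR's quasi-likelihood test, Y428F minus WT on the log2 scale). *Adamts1*, a versican-cutting protease, differed by -0.57, since it had 175 ± 18.8 and 288 ± 21.2 CPM with vehicle and PTH in WT cells and 166 ± 1.26 and 185 ± 14.2 CPM in Y428F cells (SD, n = 3). The contractile genes *Acta2*, *Cnn1* and *Tagln*, markers of smooth muscle and of activated stromal cells, differed by -1.02, -1.33 and -0.55, with rises in WT cells of 2.19, 2.03 and 1.82. With 1 library left out, *Adamts1* was no longer called in 5 of 12 cases (adjusted p from 0.052 to 0.0605) and *Tagln* in 9 (0.0506 to 0.126), WT PTH replicate 1 among them (0.0545 and 0.0918), while *Acta2* and *Cnn1* stayed called. The cause was not tested.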

How the results depend on the processing

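The number of genes lower in Y428F cells was 4 under each alternative, with these exceptions. It was 3 with either treatment when at least 10 counts in every library were required, since *Aspn* was then not tested, and 3 with vehicle without WT vehicle replicate 3 or Y428F vehicle replicate 3, through *Vcan*. *Bgn*, *Ogn* and *Aspn* kept their call and direction under every alternative in which they were tested. The number of genes lower with PTH in Y428F cells became 1, *Vcan*, with library totals in place of TMM, with no filter on low counts and with the replicate block, and 0 to 1 with a library left out. Its adjusted p was 0.0307 with library totals, 2.74e-05 with no filter and 0.0195 with the block, which gave -0.33. The cause was not tested. Residuals of same-numbered libraries had a mean correlation of 0.0064 over 18 pairs (-0.11 to 0.185). These pairs were taken within and across the lines together, so pairing of vehicle and PTH libraries within a line was not tested. The block is given only as an alternative and is not read as a better or worse estimate.

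Other reversals of sign concerned values that were not called. For *Vcan* with PTH in WT cells the log2 fold change was 0.0013 with DESeq2, 0.0013 with its size factors and 0.0026 with the replicate block, and -0.094 to 0.072 with a library left out. For *Ogn* with PTH in Y428F cells it was -0.028 with library totals and -0.016 to 0.040 with a library left out. For *Fmod* between the lines with vehicle it was 0.023 with library totals and -0.15 to 0.10 with a library left out. For *Omd* there it was 0.0077 with DESeq2, 0.0056 with size factors, 0.052 with library totals, 0.0053 with at least 10 counts in every library, 0.0078 with the replicate block, and -0.17 to 0.22 with a library left out. With a library left out, it ran from -0.096 to 0.019 for *Bgn* and -0.021 to 0.35 for *Omd* with PTH in WT cells, from -0.16 to 1.03 for *Aspn* with PTH in Y428F cells, and from -0.057 to 0.19 for *Fmod* and -0.062 to 0.15 for *Omd* between the lines with PTH. For the difference in response it ran from -0.057 to 0.23 for *Fmod*, -0.44 to 0.74 for *Aspn*, -0.17 to 0.22 for *Omd* and -0.028 to 0.28 for *Prelp*. Values that kept their sign but moved with a library left out were *Fmod* (-0.40 to -0.15) and *Aspn* (0.08 to 0.50) with PTH in WT cells, *Fmod* (-0.31 to -0.07) and *Omd* (0.01 to 0.34) with PTH in Y428F cells, *Prelp* between the lines with PTH (0.27 to 0.58) and *Ogn* for the difference in response (-0.10 to -0.03), none of them called. With library totals the median log2 fold change of all genes reached 0.09 at most, between the lines with PTH. Counts of at most 4 per library leave *Dcn*, *Podn* and *Lum* without a fold change under any setting.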
